A study of Mus musculus with 9 samples.

Results

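The genes of one-carbon metabolism and nucleotide synthesis were followed in naive and activated mouse B cells. They were chosen as the rows of the deposited expression table that carry the symbols of 35 enzymes of the serine and folate one-carbon pathways and of purine, pyrimidine and deoxynucleotide synthesis and salvage. All 35 were found among the 17596 genes of the table, and all 35 were among the 10823 whose mean over the libraries reached 1 FPKM (fragments per kilobase of transcript, scaled to mapped fragments). RNA sequencing was performed on splenic primary B cells of *Mb1Cre* mice, the control, and of *Mct1f/fMb1Cre* mice, called *Mct1*-deficient here. Both genotypes carry the *Mb1Cre* allele, which expresses Cre in the B cell lineage, and *Mct1*, the gene of a lactate and pyruvate transporter that the table lists as *Slc16a1*, is floxed between exon 1 and intron 3 in the second. On day 0 the cells were untreated and gave 2 libraries of each genotype. On day 3 they had been cultured with LPS at 10 μg/ml and with 50 ng/ml of IL-4, which gave 2 control and 3 *Mct1*-deficient libraries. Per the study's methods the mice were 6 to 8 weeks old. No label ties a library to a mouse, so the p values measure the spread between these libraries.

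A dividing lymphocyte must double its DNA and make much RNA, and both need nucleotides. Serine, made from a glycolytic intermediate by *Phgdh*, *Psat1* and *Psph* or taken up from the medium, gives a carbon unit to folate. Folate carries this unit to the purine ring and to thymidylate. Purines are built on phosphoribosyl pyrophosphate (PRPP) up to inosine monophosphate (IMP), pyrimidines are built up to UMP and CTP, and ribonucleotide reductase turns ribonucleotides into the deoxynucleotides of DNA. Salvage enzymes recover ready-made bases and nucleosides instead.

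The data showed 2 main patterns. In both genotypes, 29 of the 35 genes rose from day 0 to day 3, from 1.48-fold for *Impdh1* to 9.69-fold (control) and 10.7-fold (*Mct1*-deficient) for *Psat1*. Between the genotypes 1 of the 35 genes (2.86%) was called lower on day 3 and 0 higher, where 1.53% and 0.887% of all tested genes were. A call needed an adjusted p under 0.05 and a log2 difference above 0.5 in size. The gene called was *Tyms*, which encodes thymidylate synthase, the enzyme that makes the thymine nucleotide of DNA. *Tyms* reached 20.7 ± 0.118 FPKM (SD, n = 3 libraries) in *Mct1*-deficient B cells against 31.3 ± 1.44 FPKM (SD, n = 2) in control B cells.

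The sequences upstream of *Tyms* and of *Rrm1* and *Rrm2*, the subunit genes of ribonucleotide reductase that rose beside it without a called genotype difference, are shown because these genes are set against each other below. Each run is the 250 bases before the transcription start in RefSeq (GRCm38.p6), 5′ to 3′ on the strand of the gene, and capitals mark the motif CACGTG (the E-box bound by MYC and its relatives) or CCAAT (bound by NF-Y). The *Tyms* window lies at chr5:30073626-30073875 on the minus strand, the *Rrm1* window at chr7:102441445-102441694 and the *Rrm2* window at chr12:24708004-24708253, both on the plus strand.
Tyms: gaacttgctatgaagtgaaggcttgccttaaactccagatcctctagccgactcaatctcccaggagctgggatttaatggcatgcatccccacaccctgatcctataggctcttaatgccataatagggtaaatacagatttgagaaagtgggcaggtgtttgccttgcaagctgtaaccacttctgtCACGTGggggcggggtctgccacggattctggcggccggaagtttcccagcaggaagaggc
Rrm1: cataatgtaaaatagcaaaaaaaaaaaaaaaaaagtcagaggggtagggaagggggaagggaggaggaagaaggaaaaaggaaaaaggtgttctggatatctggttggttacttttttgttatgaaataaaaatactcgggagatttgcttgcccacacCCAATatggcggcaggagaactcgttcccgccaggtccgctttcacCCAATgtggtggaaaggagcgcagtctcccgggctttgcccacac
Rrm2: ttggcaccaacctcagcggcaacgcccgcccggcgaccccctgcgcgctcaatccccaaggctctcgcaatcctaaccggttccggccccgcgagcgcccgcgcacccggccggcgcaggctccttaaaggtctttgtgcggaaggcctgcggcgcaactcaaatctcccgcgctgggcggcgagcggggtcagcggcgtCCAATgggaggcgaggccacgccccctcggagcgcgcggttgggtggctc
The *Tyms* window holds CACGTG, starting 61 bases before the start, and no CCAAT. The *Rrm1* window holds CCAAT at 91 and 45 bases before the start and the *Rrm2* window at 50 bases, and neither holds CACGTG. Promoter windows were found for 32 of the 35 genes, with 37 windows in all, since some genes have more than 1 start. Over both strands, CACGTG was found in 4 of the 37 windows (10.8%), those of *Atic*, *Impdh2*, *Paics* and *Tyms*, and in 8.48% of the windows of all tested genes. CCAAT was found in 15 windows (40.5%), against 36.2% for all tested genes. The ATF4-type motif TGATGNAA was found in 1 window, that of *Prps1* (2.70%, against 2.03%). The E2F motifs TTTGGCGC and TTTCGCGC were found in 0 windows, against 1.33%. No motif contains another, and a match is a description of the sequence only.

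*Tyms* itself lies at chr5:30058202-30073617 (minus strand, GENCODE annotation of GRCm38) and overlaps no other annotated gene, although a pseudogene, *Tyms-ps*, is annotated. Named pseudogenes are also annotated for *Phgdh*, *Impdh2* and *Aprt*, and how reads shared with such copies were counted is not given in the sources used here. *Ppat* and *Paics*, consecutive purine synthesis genes on chromosome 5, lie head to head and share 272 bases at their 5′ ends. Of the 35 genes, 20 overlap another annotated gene, so that their values may hold reads of a neighbour where the counting did not use strand.

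The libraries were checked before the comparisons. *Slc16a1* had 4.33 and 3.80 FPKM in control and 3.71 and 4.06 FPKM in *Mct1*-deficient B cells on day 0. On day 3 it had 22.6 and 23.0 FPKM in control and 10.8, 9.81 and 9.50 FPKM in *Mct1*-deficient B cells. The genotypes therefore separated at this gene on day 3 (log2 difference -1.11, adjusted p = 9.07e-06 from limma) and were not told apart by it on day 0 (adjusted p = 0.844), where the genotype rests on the labels. The 6 B cell markers were all at a mean of at least 10 FPKM on both days, but their sum fell. It ranged from 4183 to 4612 FPKM on day 0 and from 2182 to 2271 FPKM on day 3. Summed myeloid markers (8 genes) ranged from 1078 to 1854 FPKM on day 0, with the highest sum in *Mct1*-deficient replicate 1, and on day 3 from 22.7 to 25.5 FPKM in control and from 31.5 to 35.9 FPKM in *Mct1*-deficient B cells. Erythroid markers (6 genes) summed to 125 to 231 FPKM on day 0 and 4.34 to 7.95 FPKM on day 3. *Hbb-bs* was listed at 0 in every day 3 library. *Hbb-bt* had 7.30 to 19.6 FPKM on day 0 and 4.31 to 7.69 FPKM on day 3, most of the erythroid sum of that day. T cell markers (5 genes) summed to 26.7 to 30.1 FPKM on day 0 and 0.77 to 1.37 FPKM on day 3. Among the NK cell markers (4 genes), *Gzma* had 35.4 to 42.0 FPKM on day 0 and 79.5 to 92.5 FPKM on day 3, while *Nkg7* went from 17.2 to 24.1 FPKM to 4.52 to 6.10 FPKM, and *Ncr1* and *Klrb1c* were under 1 FPKM in every day 3 library. Their sum, 67.0 to 82.8 FPKM on day 0 and 85.3 to 98.4 FPKM on day 3, was higher on day 3 through *Gzma* alone. *Ddx3y*, a Y-linked gene, had 31.1 FPKM in *Mct1*-deficient replicate 1 on day 0, at most 0.24 FPKM in the other day 0 libraries and 14.7 to 16.9 FPKM on day 3, so Y-linked transcripts also move with the day contrast. The part of other cells and of sex in the changes below was not tested. In bulk RNA, fewer cells of a type and less RNA per cell cannot be told apart.

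All tests used log2(FPKM + 1) in limma over the 10823 genes, and a gene was called at a Benjamini-Hochberg adjusted p under 0.05 with a log2 difference above 0.5 in size. This scale understates the change of genes with low values. Fold values below are ratios of mean FPKM.

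**Figure D1:**
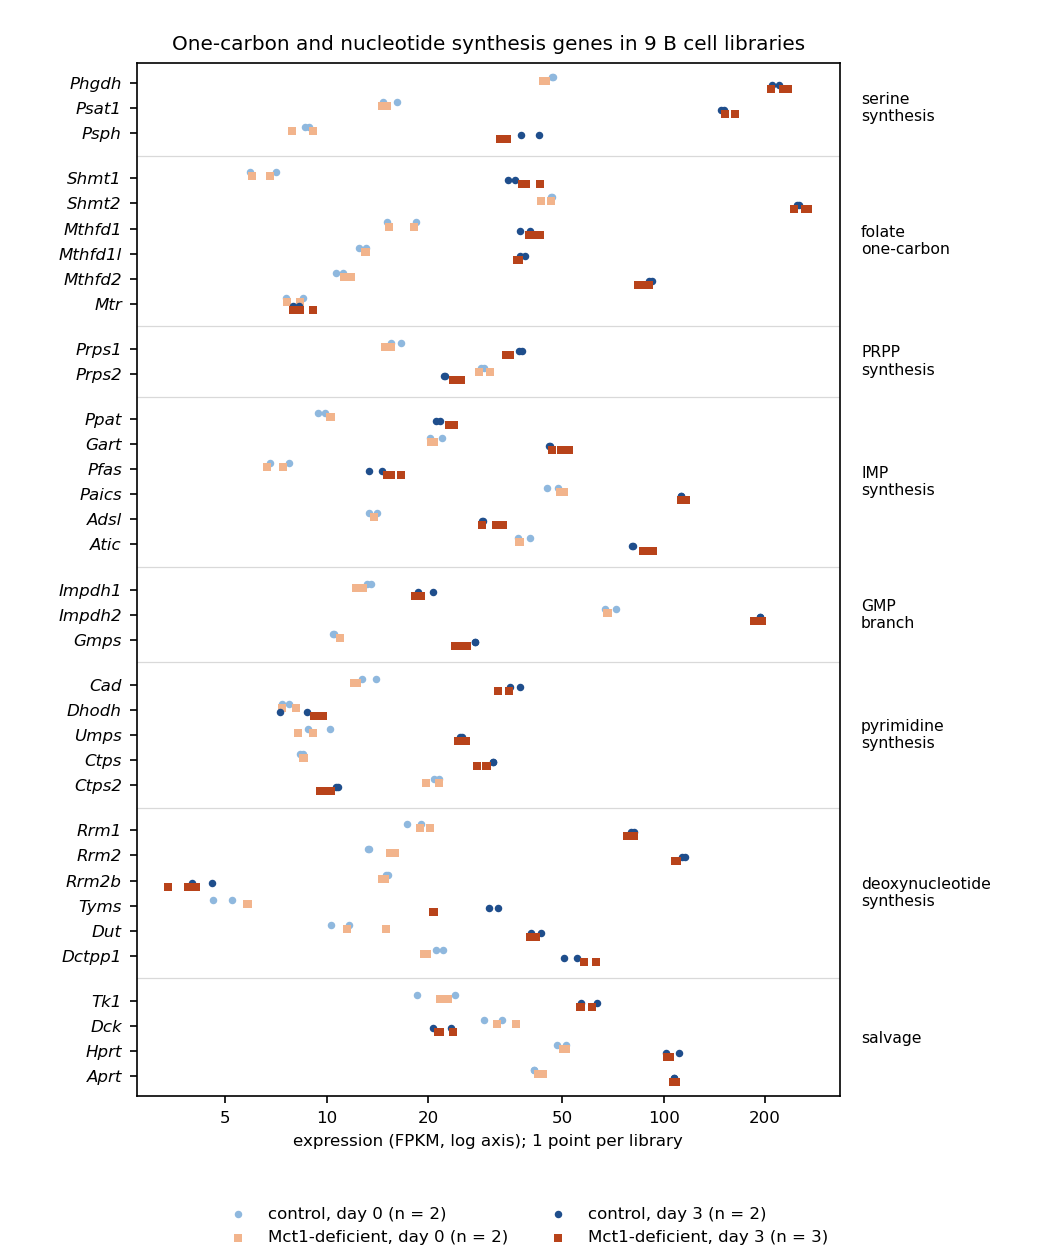
FPKM of the 35 genes (log axis) in each of the 9 libraries, with 1 point per library, grouped by role, control as circles and *Mct1*-deficient as squares, day 0 pale and day 3 dark. For 29 genes all day 3 points lie to the right of the day 0 points and for 4 genes (*Prps2*, *Ctps2*, *Rrm2b* and *Dck*) to the left. How many of all tested genes separate by day in this way was not counted. On activation in control, 9237 of 10823 genes had an unadjusted p under 0.05 from limma. At *Tyms* the day 3 genotypes stand apart, at 20.6 to 20.8 and 30.3 to 32.3 FPKM.

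The first question was how the pathway genes changed on activation. In control B cells 29 of 35 (82.9%) were higher on day 3, where 24.8% of all tested genes were, and 2 (5.71%) were lower, where 33.0% of all were. In *Mct1*-deficient B cells 29 were higher (82.9%, against 23.4% of all) and 3 lower (8.57%, against 33.2%). The same 29 genes were higher in both genotypes. The median log2 difference of the 35 genes was 1.31 in control and 1.30 in *Mct1*-deficient B cells, while that of all tested genes was -0.12 and -0.14. The scaling moves this reference. With FPKM scaled to a common total, the median of all genes was -0.31 in control and -0.30 in *Mct1*-deficient B cells, with 2078 higher and 4416 lower calls in control and 2010 and 4323 in *Mct1*-deficient B cells. The calls without scaling were 2687 higher and 3571 lower in control, and 2532 and 3588. With median-of-ratios scaling the median was 0.06 in both, with 3425 and 2761 calls in control and 3333 and 2736 in *Mct1*-deficient B cells, and with quantile normalization 3120 and 2956, and 3054 and 2852. Summed over the 35 genes, expression was 725 to 748 FPKM in the day 0 libraries (0.148% to 0.156% of all FPKM) and 2169 to 2251 FPKM in the day 3 libraries (0.395% to 0.411%). On day 0 the highest gene was *Impdh2* (69.5 FPKM in control) and the lowest *Tyms* (4.90 FPKM), and on day 3 the highest was *Shmt2* (250.2 FPKM in control) and the lowest *Rrm2b* (4.28 FPKM).

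**Figure D2:**
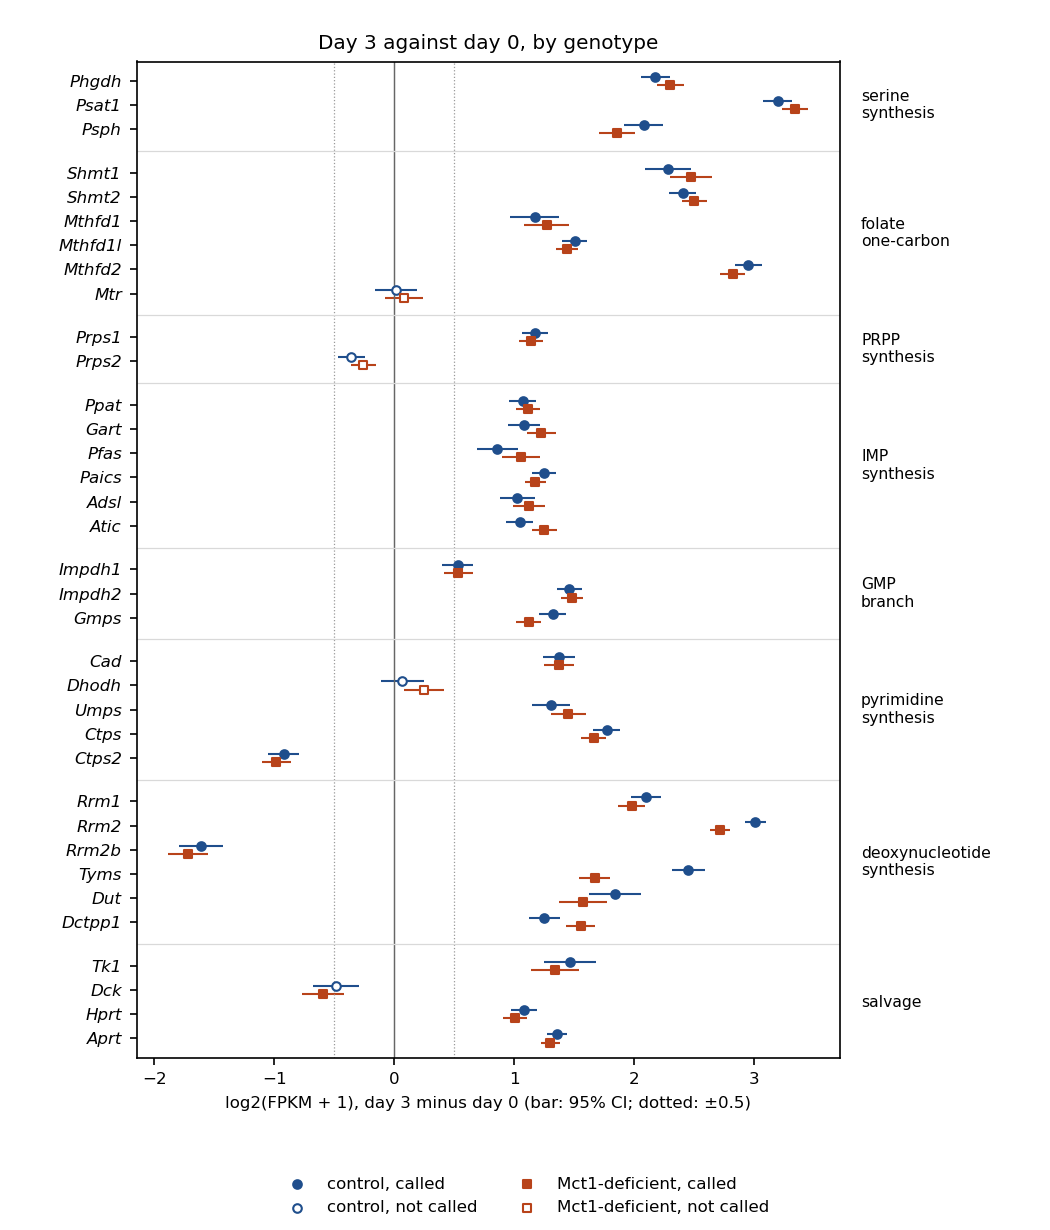
Log2 difference between day 3 and day 0 on the log2(FPKM + 1) scale for each gene in control (circles) and *Mct1*-deficient (squares) B cells, with 95% confidence intervals from limma, filled where called. The differences run from -1.72 for *Rrm2b* to 3.34 for *Psat1*, both in *Mct1*-deficient B cells, and the genotypes' intervals do not meet at *Tyms*, *Rrm2* and *Dctpp1*.

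The serine synthesis genes rose together, 3 of 3 in each genotype. *Psat1*, the transaminase of the second step, had 16.2 and 14.7 FPKM in control and 14.6 and 15.1 FPKM in *Mct1*-deficient B cells on day 0. By day 3 the values were 151.0 and 148.3 FPKM in control and 151.9, 163.1 and 163.0 FPKM in *Mct1*-deficient B cells. The days were thus far apart, with log2 differences of 3.20 ± 0.0547 (SE) and 3.34 ± 0.0499 (adjusted p = 3.51e-12 and 1.74e-12 from limma). *Phgdh*, which commits 3-phosphoglycerate to serine, had 43.8 to 46.8 FPKM in the 4 day 0 libraries. After activation it had 219.7 and 210.2 FPKM in control and 208.0, 226.1 and 234.2 FPKM in *Mct1*-deficient B cells, log2 differences of 2.18 and 2.30. *Psph*, the phosphatase that releases serine, rose by 2.08 and 1.86 on the log2 scale.

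Of the 6 folate one-carbon genes 5 rose in each genotype. *Mthfd2*, the mitochondrial dehydrogenase known for its rise in dividing cells, had 10.7 and 11.2 FPKM in control and 11.2 and 11.8 FPKM in *Mct1*-deficient B cells on day 0. On day 3 it had 92.0 and 90.2 FPKM in control and 83.8, 90.7 and 88.2 FPKM in *Mct1*-deficient B cells. Its log2 differences were 2.95 ± 0.0515 and 2.82 ± 0.0470 (SE). *Shmt2*, the mitochondrial enzyme that takes a carbon from serine, rose from between 43.3 and 46.6 FPKM to between 244 and 268 FPKM over the libraries, 5.39-fold in control and 5.78-fold in *Mct1*-deficient B cells. Its cytosolic counterpart *Shmt1* rose from between 5.90 and 7.08 FPKM to between 34.4 and 43.0 FPKM. *Mthfd1l*, which releases formate in the mitochondrion, rose 2.98-fold and 2.84-fold, and *Mthfd1*, which attaches formate to folate in the cytosol, 2.32-fold and 2.49-fold. *Mtr*, methionine synthase, stayed outside this group of changes. It had between 7.57 and 9.12 FPKM in the 9 libraries, with log2 differences of 0.01 (95% CI -0.16 to 0.19) and 0.08 (-0.08 to 0.24).

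PRPP, the ribose donor, is made by *Prps1* and *Prps2*. *Prps1* had 16.6 and 15.5 FPKM in control and 14.9 and 15.5 FPKM in *Mct1*-deficient B cells on day 0. By day 3 the values were 37.1 and 38.0 FPKM in control and 34.7, 35.1 and 34.1 FPKM in *Mct1*-deficient B cells, a called rise in both (log2 differences 1.18 and 1.14). *Prps2* had 29.3 and 28.7 FPKM in control and 28.3 and 30.6 FPKM in *Mct1*-deficient B cells on day 0, and 22.5 and 22.4 FPKM and then 25.0, 23.8 and 24.6 FPKM on day 3. All its day 3 values lay under its day 0 values, but the log2 differences of -0.36 and -0.26 (adjusted p = 5.32e-05 and 3.36e-04 from limma) stayed under the limit of 0.5. The 6 genes of IMP synthesis all rose in each genotype, from 0.86 for *Pfas* to 1.25 for *Paics* in control and from 1.06 for *Pfas* to 1.25 for *Atic* in *Mct1*-deficient B cells. *Paics*, which catalyses steps in the middle of the pathway, had 45.1 to 50.5 FPKM on day 0 and 112 to 116 FPKM on day 3. *Gart*, an enzyme with several activities, had 20.2 to 22.0 FPKM on day 0 and 45.6 to 52.5 FPKM on day 3, and *Ppat*, which commits PRPP to purines, 9.39 to 10.3 FPKM and 21.1 to 23.9 FPKM. *Adsl*, which acts in IMP and in AMP formation, rose 2.11-fold in control and 2.27-fold in *Mct1*-deficient B cells, and *Atic*, which closes the ring, 2.09-fold and 2.42-fold.

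In the branch to GMP, 3 of 3 genes were called higher in each genotype. *Impdh2*, an IMP dehydrogenase, had 67.0 and 72.0 FPKM in control and 67.7 and 68.3 FPKM in *Mct1*-deficient B cells on day 0. After activation it had 193.1 and 192.5 FPKM in control and 185.3, 194.6 and 195.7 FPKM in *Mct1*-deficient B cells, log2 differences of 1.46 and 1.48. *Gmps*, which aminates XMP to GMP, rose 2.64-fold and 2.28-fold. *Impdh1*, the other dehydrogenase, had 13.1 and 13.5 FPKM in control and 12.8 and 12.2 FPKM in *Mct1*-deficient B cells on day 0, and 20.7 and 18.7 FPKM and then 18.4, 18.3 and 19.0 FPKM on day 3. Its log2 difference of 0.53 in both genotypes stood just above the limit, and the call was lost with a common total (0.34 in control, 0.37 in *Mct1*-deficient), with a pseudocount of 5 (0.43 in both) and, in control, without day 3 replicate 1 (0.46).

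Of the 5 pyrimidine genes, 3 rose, 1 fell and 1 was not called in each genotype. *Ctps*, a CTP synthase, had 8.52 and 8.32 FPKM in control and 8.48 and 8.54 FPKM in *Mct1*-deficient B cells on day 0. On day 3 it had 31.1 and 31.2 FPKM in control and 29.6, 27.9 and 30.0 FPKM in *Mct1*-deficient B cells, log2 differences of 1.77 and 1.66. *Ctps2*, the other CTP synthase, went the opposite way, with 20.9 and 21.5 FPKM in control and 19.8 and 21.5 FPKM in *Mct1*-deficient B cells on day 0. By day 3 the values were 10.8 and 10.6 FPKM and then 10.3, 9.57 and 9.94 FPKM, log2 differences of -0.92 ± 0.0584 and -0.98 ± 0.0533 (SE). *Cad*, which carries the first steps of the ring, rose 2.71-fold and 2.73-fold, and *Umps*, which completes UMP, 2.62-fold and 2.93-fold. *Dhodh*, the mitochondrial step between them, had between 7.26 and 9.73 FPKM over the 9 libraries. Its log2 differences of 0.07 (95% CI -0.11 to 0.25) and 0.25 (0.08 to 0.41) were not called.

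The deoxynucleotide genes held both a large rise and the largest fall among the 35. *Rrm2*, the S phase subunit of ribonucleotide reductase, had 13.3 and 13.3 FPKM in control and 15.4 and 16.0 FPKM in *Mct1*-deficient B cells on day 0. After activation it had 115 and 114 FPKM in control and 108.7, 109.5 and 108.1 FPKM in *Mct1*-deficient B cells, log2 differences of 3.01 and 2.72. *Rrm2b*, the p53-inducible alternative subunit, fell from between 14.6 and 15.2 FPKM to 3.99 and 4.57 FPKM in control and to 3.88, 3.39 and 4.10 FPKM in *Mct1*-deficient B cells. Its log2 differences were -1.61 ± 0.0819 and -1.72 ± 0.0748 (SE). *Rrm1*, the large subunit, rose 4.46-fold and 4.09-fold. *Dut*, which removes dUTP, rose 3.81-fold and 3.10-fold, and *Dctpp1*, which hydrolyses dCTP, 2.44-fold and 3.04-fold.

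Of the 4 salvage genes 3 rose in each genotype. *Tk1*, the cytosolic thymidine kinase, had 18.6 to 24.0 FPKM on day 0 and 56.3 to 63.4 FPKM on day 3, log2 differences of 1.47 and 1.34. *Aprt*, which salvages adenine, had 41.3 to 43.8 FPKM on day 0 and 106.4 to 109.0 FPKM on day 3, and *Hprt*, which salvages hypoxanthine and guanine, 48.2 to 51.3 FPKM and 101.9 to 110.8 FPKM. *Dck*, deoxycytidine kinase, had 29.2 and 33.2 FPKM in control and 36.4 and 31.9 FPKM in *Mct1*-deficient B cells on day 0. On day 3 it had 20.6 and 23.3 FPKM in control and 23.8, 21.4 and 21.6 FPKM in *Mct1*-deficient B cells. It was called lower in *Mct1*-deficient B cells (log2 difference -0.60) but stood just under the limit in control (-0.49), and the difference between these, -0.11, was not significant (adjusted p = 0.606 from limma). With median-of-ratios scaling the *Mct1*-deficient value was -0.38 and not called, and with a common total the control value was -0.68 and called.

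*Prps1*, *Prps2*, *Ctps2* and *Hprt* are X-linked. When *Mct1*-deficient replicate 1, the library with Y transcripts, was the only day 0 library of its genotype in the fit, their log2 differences on activation were 1.16, -0.20, -0.93 and 1.02. With the other day 0 library alone they were 1.11, -0.31, -1.04 and 0.99.

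**Figure D3:**
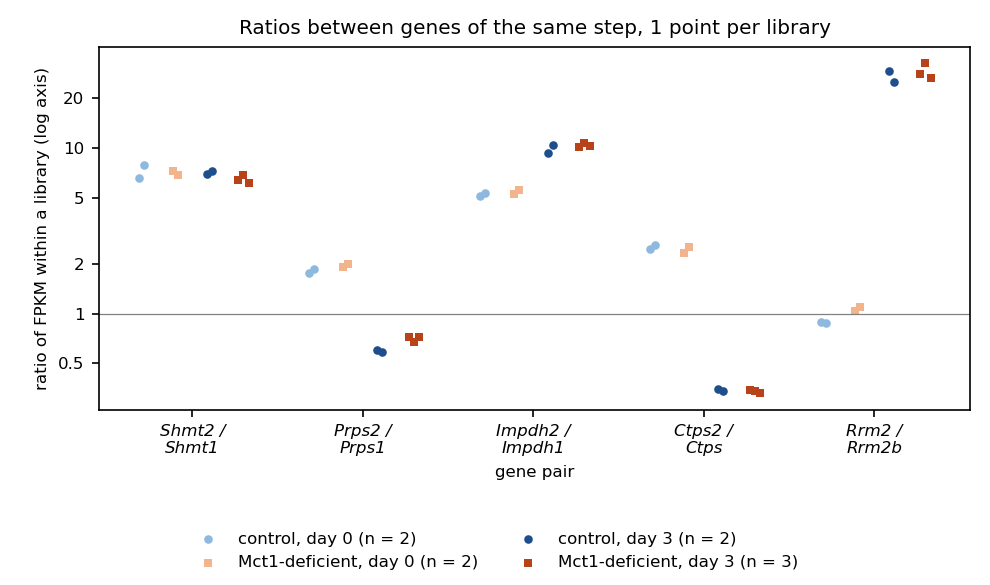
Ratio of the FPKM values of 2 genes of the same step within each library (log axis), with 1 point per library, control as circles and *Mct1*-deficient as squares, day 0 pale and day 3 dark. The Rrm2 / Rrm2b points move from about 1 to over 24 and the Ctps2 / Ctps and Prps2 / Prps1 points cross from above to below 1, while the Shmt2 / Shmt1 points of the days overlap.

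The gene pairs that share a step were then compared by their ratio within a library, which does not depend on how the libraries are scaled. The ratio of *Rrm2* to *Rrm2b* was 0.889 and 0.876 in control and 1.04 and 1.10 in *Mct1*-deficient B cells on day 0, and 28.9 and 24.9 and then 28.0, 32.3 and 26.4 on day 3. The order of these subunits in control was thus turned over. The ratio of *Ctps2* to *Ctps* went from between 2.33 and 2.59 to between 0.332 and 0.349, and that of *Prps2* to *Prps1* from between 1.77 and 1.98 to between 0.588 and 0.721. *Impdh2* stood above *Impdh1* on both days, 5.11 to 5.60 times on day 0 and 9.35 to 10.7 times on day 3. In each of these 4 pairs the days did not overlap (exact two-sided permutation test of 4 against 5 libraries, p = 0.0159, the smallest possible, 0.0199 after adjustment over 5 pairs). For *Rrm2* and *Rrm2b*, *Ctps2* and *Ctps*, and *Prps2* and *Prps1* this follows from the opposite changes of the genes given above. For *Impdh2* and *Impdh1* it follows from their unequal rises, also given above. The test adds no support in any of these pairs. How often other gene pairs separate by day was not tested. *Shmt2* to *Shmt1* was 6.58 to 7.84 on day 0 and 6.13 to 7.24 on day 3, which overlapped (exact permutation test, p = 0.270). The libraries of both genotypes were pooled within a day.

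The second question was whether loss of *Mct1* changed these genes. On day 3, 0 of the 35 genes were higher and 1 (2.86%) was lower in *Mct1*-deficient B cells, where 0.887% and 1.53% of all tested genes were called. A single call is the smallest count above 0, so this share is not read as a trait of the 35 genes. With no limit on size, 3 of the 35 genes passed the adjusted p, namely *Tyms*, *Psph* and *Atic*. Over all 10823 genes 653 higher and 997 lower passed it. At an unadjusted p under 0.05 there were 6 higher and 4 lower genes, and over all genes 3142 of 10823. The median log2 difference of the 35 genes was 0.01, and that of all genes was -0.01. The 34 genes that were not called had log2 differences between -0.25 and 0.21, and their 95% confidence intervals lay between -0.40 and 0.38, inside the limit of 0.5 used for calls. Summed myeloid markers were also higher in all 3 *Mct1*-deficient libraries than in both controls on day 3, with *Lyz2* the largest of them (16.8 to 20.4 FPKM against 10.0 and 11.5 FPKM). *Csf1r*, *Adgre1*, *Itgam* and *Cd68* separated in the same direction. The means of *S100a8* (0.537 against 0.875 FPKM) and *S100a9* (0.637 against 1.595 FPKM) were lower in *Mct1*-deficient B cells. The genotypes overlapped at *S100a8*, *S100a9* and *Ly6g*. The part of myeloid cells in the genotype differences was not tested.

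*Tyms* was the gene called. By day 3 the values were 32.3 and 30.3 FPKM in control and 20.8, 20.7 and 20.6 FPKM in *Mct1*-deficient B cells. Their mean was 66.2% of that in control B cells. The 3 *Mct1*-deficient libraries lay close together and under both control libraries. The log2 difference was -0.57 ± 0.0573 (SE, 95% CI -0.70 to -0.45, adjusted p = 1.31e-04 from limma). On day 0 it had 5.22 and 4.58 FPKM in control and 5.81 and 5.82 FPKM in *Mct1*-deficient B cells, here with the *Mct1*-deficient libraries higher, and this difference of 0.21 (95% CI 0.07 to 0.35) was not significant after adjustment (adjusted p = 0.248). *Tyms* thus rose 6.38-fold in control and 3.56-fold in *Mct1*-deficient B cells. The difference between these rises was tested as an interaction, which was called for *Tyms* at -0.78 ± 0.0850 (SE, adjusted p = 6.37e-04). Of this, 0.21 came from the day 0 difference. Over the 35 genes the interaction called 0 as higher and 1 as lower (2.86%), against 1.02% and 2.22% of all genes, so the share called lower is near that of all genes. With a pseudocount of 5 the day 3 difference of *Tyms* was -0.50 to 2 decimals, just under the limit in size, and not called (adjusted p = 4.48e-05 from limma). Leaving out any 1 library gave a difference between -0.62 and -0.53, and a left-out day 0 library cannot move it.

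**Figure D4:**
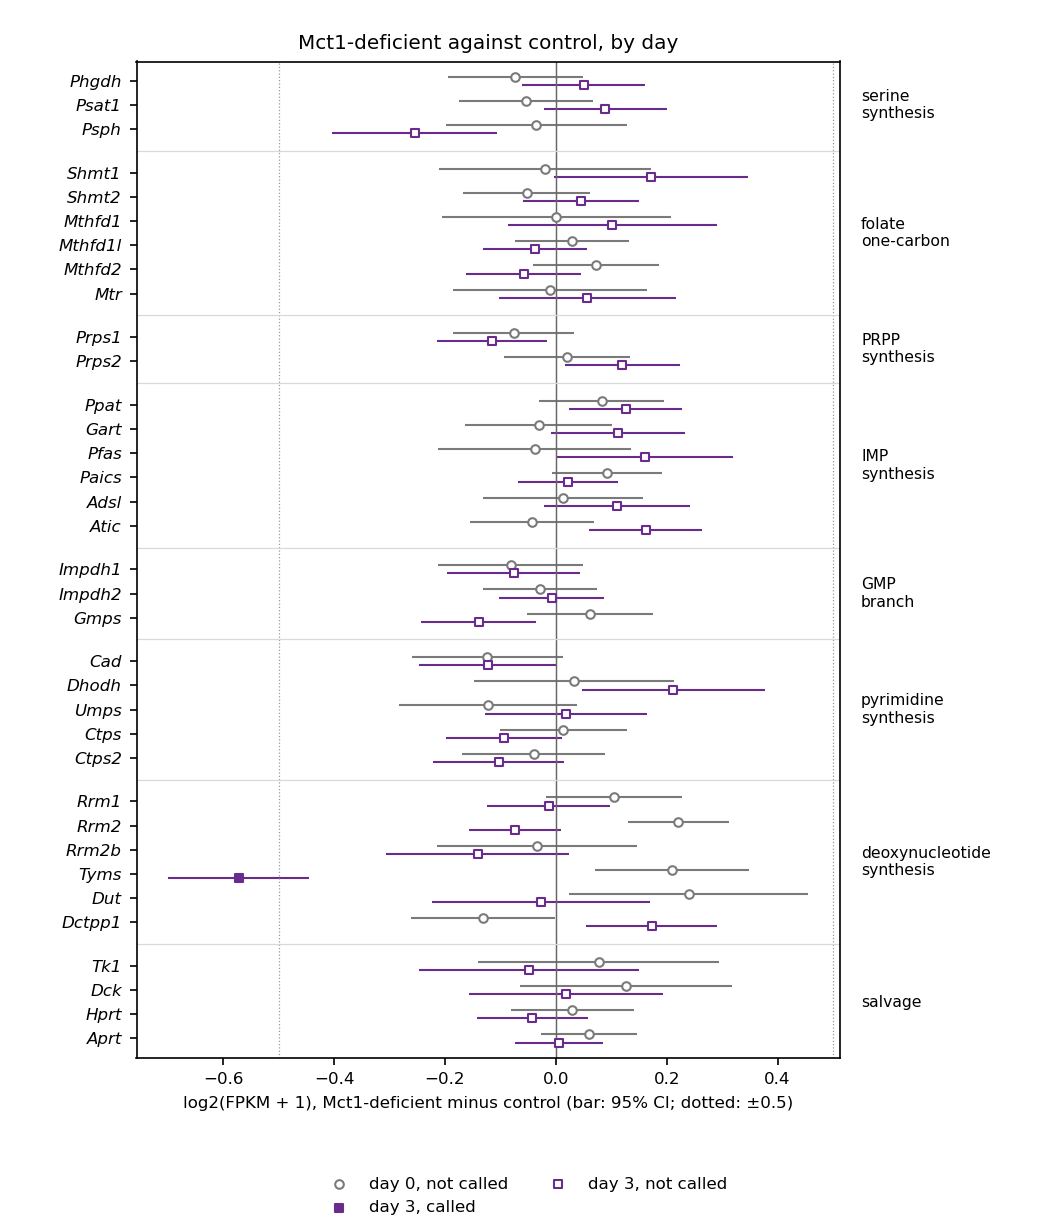
Log2 difference between *Mct1*-deficient and control B cells on the log2(FPKM + 1) scale for each gene on day 0 (circles) and day 3 (squares), with 95% confidence intervals from limma, filled where called. *Tyms* on day 3, at -0.57, is the filled point, and the other day 3 points lie between -0.25 and 0.21.

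The genes nearest to *Tyms* in function did not show a called genotype difference. On day 3 *Rrm1* had 81.9 and 79.9 FPKM in control and 81.5, 77.7 and 81.2 FPKM in *Mct1*-deficient B cells, a log2 difference of -0.01 (95% CI -0.12 to 0.10). *Tk1*, which makes the product of thymidylate synthase from thymidine instead, had 63.4 and 57.0 FPKM and then 56.3, 61.1 and 57.0 FPKM, which overlapped (log2 difference -0.05, -0.25 to 0.15). *Dut*, which supplies dUMP, the substrate of thymidylate synthase, had 43.3 and 40.4 FPKM and then 41.7, 41.3 and 40.1 FPKM (-0.03, -0.22 to 0.17). *Rrm2* had 115.4 and 113.6 FPKM and then 108.7, 109.5 and 108.1 FPKM, which did not overlap (-0.07, -0.16 to 0.01). Its interaction had the same sign as that of *Tyms* and passed the adjusted p but not the limit (-0.30, adjusted p = 0.00999 from limma). Those of *Rrm1* (-0.12), *Tk1* (-0.13) and *Dut* (-0.27) were also below 0 but not significant (adjusted p = 0.355, 0.596 and 0.241 from limma). Within a library, the ratio of *Tyms* to *Rrm1* was 0.394 and 0.379 in control and 0.256, 0.266 and 0.254 in *Mct1*-deficient B cells on day 3, against 0.265 to 0.307 on day 0 in the 4 libraries. In this ratio 2 of the 3 *Mct1*-deficient libraries of day 3 lay under the day 0 range and 1 lay inside it, whereas both control libraries lay above it. Against *Rrm2* the ratio was 0.280 and 0.266 in control and 0.192, 0.189 and 0.191 in *Mct1*-deficient B cells, under the day 0 range of 0.345 to 0.391 in both genotypes. Against *Tk1* it was above the day 0 range (0.218 to 0.269) in both, at 0.509 and 0.531 in control and 0.339 to 0.370 in *Mct1*-deficient B cells. Against *Dut* it was 0.746 and 0.750 in control and 0.499 to 0.514 in *Mct1*-deficient B cells, and here the latter overlapped the day 0 range of 0.390 to 0.505. The position relative to day 0 thus depended on the partner gene. On day 3 the *Mct1*-deficient libraries lay under both controls in all 4 ratios. This follows from the *Tyms* values, which all 4 ratios share, and from the small differences of the partner genes. The ratios therefore add no separate support to the *Tyms* difference. The printed *Tyms* window with its CACGTG and the *Rrm1* and *Rrm2* windows with CCAAT belong to these genes, and no measurement here bears on the use of those motifs. The windows of *Tk1* and *Dut* hold neither motif. *Atic*, *Impdh2* and *Paics*, which also hold CACGTG, had day 3 log2 differences of 0.16, -0.01 and 0.02, without a call.

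**Figure D5:**
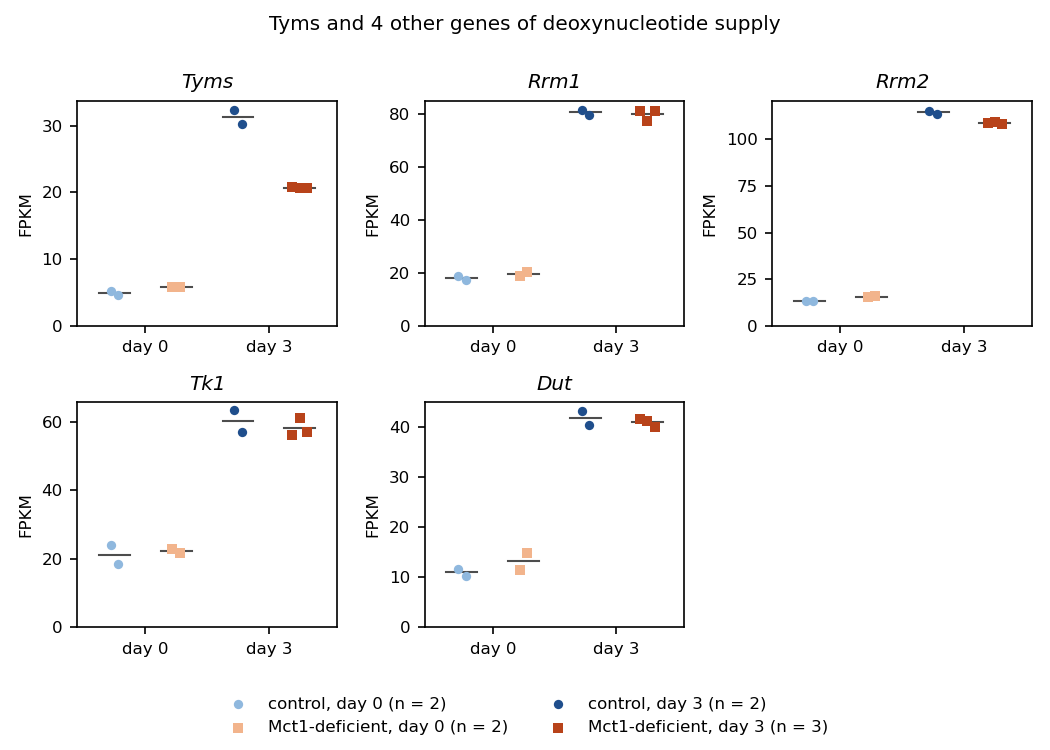
FPKM of *Tyms* and of 4 other genes of deoxynucleotide supply in each library (points), with the mean of each group as a line, control as circles and *Mct1*-deficient as squares, axes from 0. On day 3 the *Tyms* values are 20.6 to 20.8 FPKM in *Mct1*-deficient and 30.3 to 32.3 FPKM in control B cells, whereas those of *Rrm1*, *Rrm2*, *Tk1* and *Dut* lie close together or overlap.

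After *Tyms*, the 4 largest day 3 differences in size were those of *Psph*, *Dhodh*, *Dctpp1* and *Shmt1*, none of them called. *Psph* had 42.6 and 37.7 FPKM in control and 33.3, 32.7 and 34.3 FPKM in *Mct1*-deficient B cells on day 3, and 7.88 to 9.13 FPKM on day 0. Its day 3 groups did not overlap, and its difference of -0.25 (95% CI -0.40 to -0.11) passed the adjusted p (0.0280 from limma) but not the limit. *Phgdh* and *Psat1*, of the same short pathway, differed by 0.05 (-0.06 to 0.16) and 0.09 (-0.02 to 0.20). *Dhodh* had 8.71 and 7.26 FPKM in control and 9.21, 9.19 and 9.73 FPKM in *Mct1*-deficient B cells on day 3 (log2 difference 0.21, adjusted p = 0.0827). *Dctpp1* had 55.2 and 50.5 FPKM in control and 57.9, 62.9 and 58.1 FPKM in *Mct1*-deficient B cells (0.17, adjusted p = 0.0534), and 21.1 and 22.1 FPKM and then 19.5 and 19.8 FPKM on day 0. *Shmt1* had 36.3 and 34.4 FPKM in control and 38.0, 39.0 and 43.0 FPKM in *Mct1*-deficient B cells (0.17, adjusted p = 0.179). For all 6 IMP synthesis genes the estimate was above 0, from 0.02 for *Paics* to 0.16 for *Atic*, without a call, and *Atic* alone of these had an adjusted p under 0.05 (0.0384). *Atic* had 80.8 and 80.4 FPKM in control and 92.8, 86.7 and 91.6 FPKM in *Mct1*-deficient B cells on day 3. The sign of all 6 estimates was the same under each alternative tried. However, filters, limits and leaving out a day 0 library leave these estimates unchanged by construction. The other alternatives reuse the same day 3 libraries, so this gives no separate support. In the interaction, *Rrm2* (-0.30, adjusted p = 0.00999) and *Dctpp1* (0.30, adjusted p = 0.0394) passed the adjusted p but not the limit.

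On day 0, 0 of the 35 genes were called by limma in either direction, against 0.24% of all genes higher and 0.037% lower. At an unadjusted p under 0.05 there were 4 of the 35, and 1269 of 10823 over all genes. These 4 were deoxynucleotide genes, *Rrm2* (log2 difference 0.22, adjusted p = 0.0556), *Dut* (0.24, adjusted p = 0.387) and *Tyms* (0.21) with higher estimates in *Mct1*-deficient B cells and *Dctpp1* (-0.13, adjusted p = 0.417) with a lower one. *Dut* had 11.6 and 10.3 FPKM in control and 11.5 and 14.9 FPKM in *Mct1*-deficient B cells, so that the groups overlapped. The 95% confidence intervals of the 35 differences lay between -0.28 and 0.46.

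Of 89 related genes in neighbouring steps, 84 were in the table and 68 were tested. On activation 30 rose (44.1%, against 24.8% of all tested genes) and 16 fell (23.5%, against 33.0%) in control, and 29 rose (42.6%, against 23.4%) and 17 fell (25.0%, against 33.2%) in *Mct1*-deficient B cells. *Cth*, the transsulfuration enzyme that makes cysteine, had 0.16 and 0.19 FPKM in control and 0.09 and 0.16 FPKM in *Mct1*-deficient B cells on day 0. After activation it had 31.4 and 30.2 FPKM in control and 15.5, 17.3 and 16.8 FPKM in *Mct1*-deficient B cells, so that every *Mct1*-deficient library stood under both controls. It was the related gene called between the genotypes, with 0 others, at -0.86 ± 0.0681 on day 3 (SE, adjusted p = 3.00e-05 from limma) and -0.80 ± 0.101 in the interaction (adjusted p = 0.00159). This 1 of 68 (1.47%) is near the 1.53% of all tested genes called lower on day 3. At an unadjusted p under 0.05 from limma there were 18 of the 68 on day 3 and 8 on day 0, where 0 were called. Over all genes there were 3142 of 10823 on day 3 and 1269 on day 0. Other large rises were those of *Uck2*, a uridine-cytidine kinase (15.5 to 17.8 FPKM on day 0, 92.5 to 94.9 FPKM on day 3), and *Ahcy*, which hydrolyses S-adenosylhomocysteine (log2 difference 2.36 in control and 2.61 in *Mct1*-deficient). The largest falls were those of *Ampd3*, an AMP deaminase (-2.57 and -2.24), *Gda*, guanine deaminase (-2.43 and -2.69), *Sfxn3*, a mitochondrial serine carrier (-2.36 and -1.86), and *Tk2*, the mitochondrial thymidine kinase. *Tk2* had 37.5 to 40.5 FPKM on day 0 and 7.46 to 7.93 FPKM on day 3, opposite in direction to its cytosolic counterpart *Tk1*.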

How the data were processed

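Splenic B cells of 2 genotypes were profiled naive or after 3 days with LPS and IL-4, in 9 libraries grouped by their labels. The values deposited by the authors are FPKM, rounded to 2 decimals and normalised to gene length and mapped fragments. The submitters' processing notes name Bowtie2 and GRCm38/mm10, and the version, the quantifier and the annotation are not given in the sources used here. RNA was extracted with TRNzol per the labels and with a column kit per the study's methods. Read counts were not recoverable from low values, so depth is unknown, no counting interval is given, and precision rests on 2 or 3 libraries per group. The FPKM of all genes summed to 477079 to 491459 per library on day 0 and 547355 to 563586 on day 3.

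Genes whose mean reached 1 FPKM were tested as log2(FPKM + 1) with limma 3.58.1 in R 4.3.3 (1 mean per group, trend, Benjamini-Hochberg over all 10823 genes, calls at adjusted p under 0.05 and a log2 difference above 0.5). Intervals are 95% moderated t intervals. The procedure was tested on simulated data with 10823 genes for the day 3 genotype comparison, where it recovered 100% of 102 genes changed by a log2 of 1 and called 0 of 10623 unchanged genes. Only changes of 1 and 2 were simulated, with independent noise and no difference in sex or cell content between libraries. The simulation therefore does not bear on calls near the limit of 0.5, such as that of *Tyms*. Ratios were compared by exact permutation (scipy 1.17.1, Python 3.11.15). Replicate numbers were not used to pair the libraries in the main fit. Coordinates come from GENCODE (GRCm38) and promoter windows from RefSeq (GRCm38.p6).

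The members and lists were chosen with earlier results of these data known. Named were all members by role, with every library for those called between genotypes, those with the 2 largest rises and falls per role and pairs sharing a step, the 5 largest day 3 differences, and up to 4 called related genes per direction. Some items are not reported here. Alternatives were other pseudocounts (0.1, 5), filters, scalings, fits, limits and each library left out.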

Additional observations from a re-analysis of the deposited data

Results flagged for a closer look

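Among the genes examined, 2 had a genotype difference that differed between day 3 and day 0 by the interaction test of limma. *Tyms* had an interaction of -0.78 on the log2(FPKM + 1) scale (adjusted p = 6.37e-04), with 20.6 to 20.8 FPKM in 3 *Mct1*-deficient and 30.3 and 32.3 FPKM in 2 control libraries on day 3. Over the alternatives it lay between -0.86 and -0.62 (adjusted p from 3.53e-04 to 0.00796). *Cth* had an interaction of -0.80 (adjusted p = 0.00159), between -0.84 and -0.59 over the alternatives (adjusted p from 2.52e-04 to 0.0967), and rests on day 0 values of at most 0.19 FPKM. No group held 4 or more libraries, so single libraries were not tested as outliers.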

How the results depend on the processing

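The precision is limited by 2 or 3 libraries per group and by the unknown depth. The day 3 difference of *Tyms* lay between -0.62 and -0.50 over the 22 alternatives and was called in 20, lost under a log2 limit of 1 and a pseudocount of 5. That of *Cth* was called in 21 of 22. Filters, limits, a fit without the trend or with only the groups compared, and leaving out a day 0 library cannot move either estimate. The other alternatives reuse the same day 3 libraries, so these counts give no separate support. Of the 35 genes, with no log2 limit 4 were called lower on activation in control, 1 higher and 2 lower on day 3, and 1 higher and 2 lower in the interaction. Over all 10823 genes these counts were 5144 lower in control, 653 and 997 on day 3, and 413 and 607 in the interaction. With a limit of 1, 1 was lower on activation in each genotype and 0 were lower on day 3 and in the interaction. Over all genes that limit gave 1867 lower in control, 1794 lower in *Mct1*-deficient B cells, 27 lower on day 3 and 40 lower in the interaction. A common total gave 4 lower in control, and a pseudocount of 5 gave 0 lower on day 3. The median log2 difference of the 35 genes lay between 1.12 and 1.50 in control and between 1.13 and 1.52 in *Mct1*-deficient B cells over the alternatives. Leaving out each library gave 28 to 29 higher and 2 to 3 lower in control and left the other counts of the 35 as they were.

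For the related genes on activation, a limit of 1 gave 9 lower in each genotype and 18 higher in *Mct1*-deficient B cells, median-of-ratios scaling 10 lower in control, and a pseudocount of 5 gave 11 lower in *Mct1*-deficient B cells. Between the genotypes on day 3, no limit gave 6 higher and 6 lower of the 68, against 653 and 997 of all 10823 genes. A limit of 1 gave 0 lower and a pseudocount of 0.1 gave 2 higher. In the interaction, no limit gave 3 higher and 4 lower, against 413 and 607 of all genes. A limit of 1 gave 0 lower, a pseudocount of 0.1 gave 1 higher and 0 lower, and a common total 1 higher. Leaving out each library gave 0 to 1 higher and 1 to 2 lower on day 3 and in the interaction, and 0 to 1 higher on day 0. The cause of these changes was not tested, except that a limit changes calls by construction.

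The deviations of same-numbered libraries had correlations from -0.122 to 0.064. With so few libraries per group these cannot exclude a pairing. With the replicate block, which fits the lone replicate 3 library by a term of its own, 2 related genes were called lower on day 3, the 35 genes kept 29 higher and 2 lower in control, and no other count changed by over 1.5 times. The crossed block, added after seeing the data, gave the same counts, 2 related genes lower on day 3 and 29 higher and 2 lower of the 35 in control.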
